A study of Mus musculus with 27 samples.

Results

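Levels of 10 genes of calcium sensing, membrane repair, sugar binding and the cytoskeleton were followed in CD8+ T cells from tumours: S100a4, S100a6, S100a10 and S100a11, Anxa1, Anxa2 and Anxa6, Lgals1 and Lgals3, and Vim. They were found by matching the Ensembl mouse gene IDs of the count table to these symbols. All 10 were among its 47729 IDs, and all 10 were among the 14059 genes that passed the filter on low counts. The tumours were grown from MC38, a colon adenocarcinoma line of the mouse, and gave 27 RNA-seq libraries. After digestion the CD45+ CD3+ CD8+ cells were sorted by surface PD-1, which inhibits T cells after activation, and by surface KLRG1, which marks late effector cells and is also found on NK cells. Mice had received Tri, a combined immunotherapy that the series text shortens to TCT and whose parts the sources used here do not state, or Iso, an isotype control. The Tri groups were PD1+KLRG1+ (5 libraries), PD1+KLRG1- (5), PD1-KLRG1+ (4) and PD1-KLRG1- (5), and the Iso groups PD1-KLRG1+ (4) and PD1-KLRG1- (4). The labels give no mouse strain beyond the tumour line and no age or sex. PD1+ cells were sequenced under Tri only, so treatment was compared in PD1- cells. The labels do not say that each library came from a separate mouse, so p-values measure the spread between these samples, which may be technical.

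S100 proteins are small calcium sensors that bind partner proteins when calcium rises, and several of them pair with an annexin. Annexins bind acidic membrane lipids in a calcium-dependent way and take part in membrane repair, vesicle traffic and the attachment of actin to membranes. Galectins are lectins that bind beta-galactoside sugars on surface glycoproteins, among them receptors of T cells. Vimentin is the intermediate filament protein of leukocytes. Transcripts of many of these genes are higher in effector and memory CD8+ T cells than in naive ones.

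The 26 deeper libraries held 6991521 to 26284630 counts each, and Iso PD1-KLRG1+ replicate 3 held 93198. A set of 6969 genes reached a median of 20 CPM, all 10 genes among them. Between 9.94% and 29.5% of this set was at 0 in an Iso PD1-KLRG1+ library, and at most 3.59% in a library of another group. Summed CD8 T cell markers (Cd8a, Cd8b1, Cd3d, Cd3e, Cd3g and Ptprc) lay between 5809 and 11667 CPM in every library. Summed myeloid markers (15 genes) lay between 205.6 and 704 CPM in Tri libraries. They lay between 119.8 and 1303 CPM in 3 Iso PD1-KLRG1+ libraries, and replicate 4 held 10315 CPM of them together with 4017 CPM of tumour and stroma markers. In Iso PD1-KLRG1- libraries myeloid markers lay between 750.8 and 4111 CPM, the highest again in replicate 4. Some of the 10 genes, such as Vim, Lgals1 and Lgals3, are abundant in macrophages and stromal cells in general, and the part of such cells in the results was not tested. In sorted bulk samples fewer cells of a type and less RNA per cell cannot be told apart.

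Expression is given as CPM, the count of a gene relative to the TMM-scaled size of its library. Fold changes are log2 values ± standard error (SE) from 1 edgeR quasi-likelihood fit to all libraries, with adjusted p by Benjamini-Hochberg over all 14059 genes and a call under 0.05. Where libraries are said not to overlap, the share of all genes without overlap was not counted, so this describes the named gene alone. Set per kilobase of exon, which allows levels to be compared between genes, S100a11, Lgals1 and S100a4 were the highest of the 10 in the 2 PD1+ groups. In Tri PD1+KLRG1+ cells they averaged 1445, 1369 and 1440 CPM per kilobase. Anxa1 was the lowest in each of the 6 groups, with its highest mean, 49.3 CPM per kilobase, in Iso PD1-KLRG1+ cells and its lowest, 10.7 CPM per kilobase, in those without KLRG1. The 9 others were at or above the 96.1 percentile of the tested genes in every group on that scale, and Anxa1 lay between the 66.9 and the 90.9 percentile. Exon lengths are those of GENCODE M21.

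**Figure D1:**
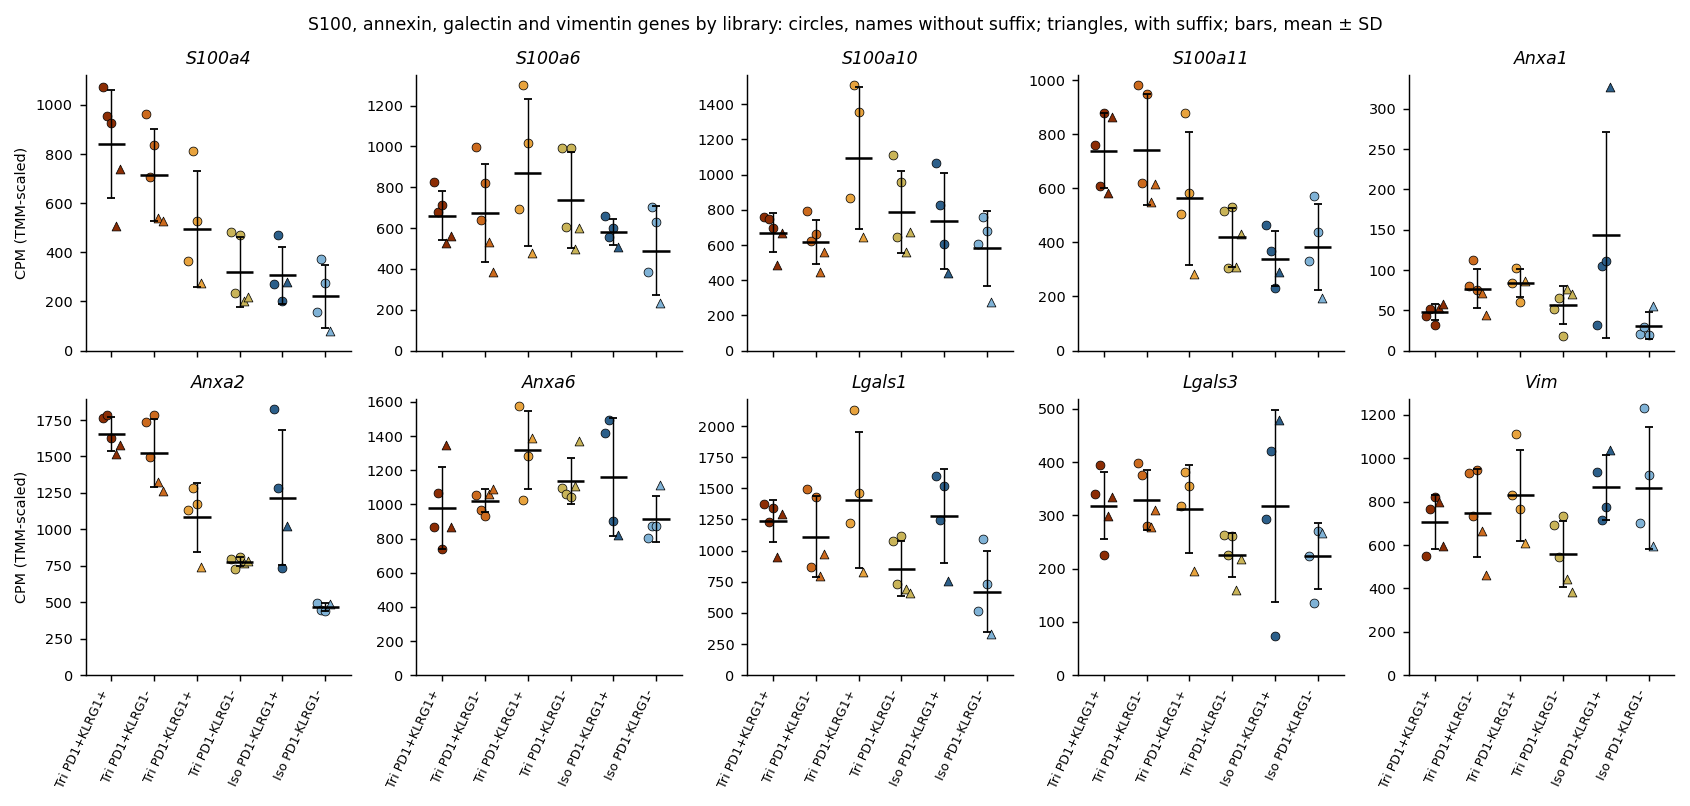
CPM of the 10 genes (vertical axes, TMM-scaled) in each of the 27 libraries, by group along the horizontal axis, with the mean and SD of each group as bars. Circles are libraries whose names lack an RNA-number suffix and triangles those with it. Anxa2 lies at 442 to 497 CPM in Iso PD1-KLRG1- libraries and above that in every other library.

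Anxa2 changed in more comparisons than any other of the 10 genes (3 of 7, always higher). It encodes annexin A2 (ENSMUSG00000032231), which binds S100A10 in a heterotetramer at the inner face of the plasma membrane. Anxa2 stood at 1765, 1784, 1629, 1516 and 1582 CPM in Tri PD1+KLRG1+ libraries and at 1737, 1499, 1784, 1328 and 1263 CPM in Tri PD1+KLRG1- libraries. It stood at 1134, 1282, 1171 and 742 CPM in Tri PD1-KLRG1+ libraries and at 796, 728, 809, 772 and 781 CPM in Tri PD1-KLRG1- libraries. In Iso cells it stood at 1824, 1282, 737 and 1026 CPM with KLRG1 and at 497, 446, 442 and 488 CPM without it. All 10 PD1+ libraries were above the Tri PD1-KLRG1- libraries, and every Iso PD1-KLRG1- library was below all libraries of the 5 other groups. The order of the means was Tri PD1+KLRG1+, Tri PD1+KLRG1-, Iso PD1-KLRG1+, Tri PD1-KLRG1+, Tri PD1-KLRG1- and Iso PD1-KLRG1-, and among neighbours in that order only the last pair did not overlap.

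Under Tri, Anxa2 rose in PD1-KLRG1- cells to 777.4 ± 30.9 CPM (SD, n = 5), against 468.2 ± 28.4 CPM (n = 4) under Iso, a log2 fold change of 0.76 ± 0.17 (edgeR, adjusted p = 0.0278), with no overlap between libraries. It was the only one of the 10 called in this comparison. Of all genes, 0.263% were called higher and 0.541% lower. The 10 genes had a median of 0.54 and the tested genes one of -0.09. In edgeR 6 of the 10 had an unadjusted p under 0.05, as had 8% of all genes. Of 9 fits that left out 1 library, 1 kept the Anxa2 call. Adjusted p ran up to 0.145 (without Iso PD1-KLRG1- replicate 2), while the log2 fold change lay between 0.71 and 0.87. The fit that kept it was the one without Iso PD1-KLRG1- replicate 4, which held the most myeloid transcripts of the 9 libraries compared (0.87, adjusted p = 0.0198). Within the libraries without the name suffix the value for Anxa2 was 0.78 (adjusted p = 0.235), and within those with it 0.67. The suffixed series holds 1 library of each Iso group and of Tri PD1-KLRG1+, so values within it that involve these groups are given without a test. Counts of alternative fits in this text include the suffixed series, and so rest in part on such single libraries. With the 4 Iso PD1-KLRG1+ libraries, which this comparison does not use, out of the fit, adjusted p was 0.0014 at 0.76.

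The remaining 9 genes did not pass in PD1-KLRG1- cells. S100a6, which encodes a calcium sensor that binds the calcyclin-binding protein, averaged 737.2 ± 236.7 CPM under Tri and 488.8 ± 217.9 CPM under Iso (log2 fold change 0.74 ± 0.22, adjusted p = 0.144). S100a4 had 0.70 ± 0.29 (adjusted p = 0.438), S100a10 0.59 ± 0.21 (0.269), Lgals1 0.50 ± 0.22 (0.541) and Anxa1 0.81 ± 0.46 (0.804). Vim had the only negative value, with 559.4 ± 151.5 CPM under Tri against 863.0 ± 280.6 CPM under Iso (-0.58 ± 0.21, adjusted p = 0.3). Ranges of the Tri and Iso libraries overlapped for all 9. Myeloid markers moved with this comparison, at 337.1 ± 140.1 CPM under Tri and 1794 ± 1563 CPM under Iso (exact permutation p = 0.00794, the smallest that 5 against 4 libraries allow; Benjamini-Hochberg p = 0.134 over 42 tests), and their part was not tested. CD8 markers averaged 9685 ± 853.4 CPM under Tri and 7955 ± 320.2 CPM under Iso (exact permutation p = 0.0159, Benjamini-Hochberg p = 0.134). B cell markers averaged 10.2 ± 8.75 CPM under Tri and 26.7 ± 1.86 CPM under Iso, with the same p-values, and tumour and stroma markers 109.2 ± 29.5 and 196.3 ± 66.1 CPM (exact permutation p = 0.0397, Benjamini-Hochberg p = 0.222). The part of these cells was not tested either.

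In PD1-KLRG1+ cells edgeR called none of the 10 genes between Tri and Iso. Of all genes, 5.46% were called higher and 0.619% lower, 855 in all, and 3 of the 10 had an unadjusted p under 0.05, as had 22.2% of all genes. DESeq2 called Anxa2 lower (-0.42, adjusted p = 0.0468). The S100 genes had the highest values, with S100a11 at 0.66 ± 0.27 (adjusted p = 0.149), S100a4 at 0.58 ± 0.30 (0.256), S100a10 at 0.56 ± 0.22 (0.119) and S100a6 at 0.52 ± 0.23 (0.182). Anxa2 averaged 1082 ± 235.3 CPM under Tri and 1217 ± 461.7 CPM under Iso (-0.19 ± 0.18, adjusted p = 0.613). Median-ratio scaling lowered the median of all genes by 0.19 here, where it was 0.34 with TMM, and the small values of Anxa6 and Lgals1 (0.17 and 0.14) changed sign with it. The S100a10 value became a call without Iso PD1-KLRG1+ replicate 1 (0.73, adjusted p = 0.0383). Tumour and stroma markers were at 43.3 ± 12.3 CPM under Tri and 1213 ± 1881 CPM under Iso (exact permutation p = 0.0286, Benjamini-Hochberg p = 0.2). That exact p is the smallest that 4 against 4 libraries allow. Of these markers Pdgfrb, Epcam, Krt8, Krt18 and Krt19 were at 0 in both groups. Myeloid markers were at 229.2 ± 28.7 and 3166 ± 4791 CPM (exact permutation p = 0.143, Benjamini-Hochberg p = 0.4). CD8 markers were at 9250.5 ± 898.7 and 7070.7 ± 1244 CPM (exact permutation p = 0.0571, Benjamini-Hochberg p = 0.24). Iso PD1-KLRG1+ replicate 4 held 10315 CPM of myeloid and 4017 CPM of tumour and stroma markers. The part of these cells was not tested.

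**Figure D2:**
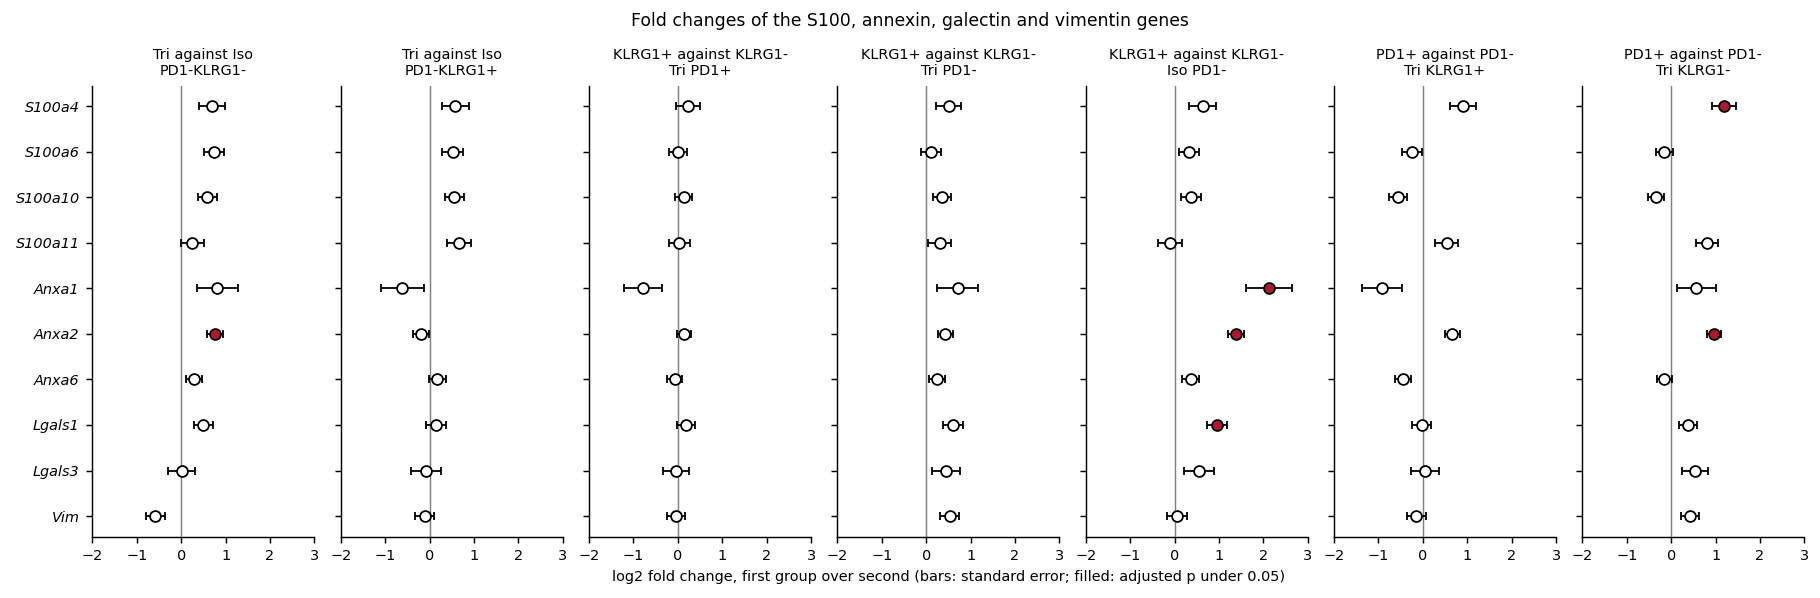
Log2 fold changes of the 10 genes (horizontal axes) in the 7 comparisons of groups, first-named group over the second, with SE as bars and filled points for adjusted p under 0.05. The filled points are Anxa2 in 3 comparisons, and S100a4, Anxa1 and Lgals1 in 1 each.

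Under Iso, edgeR called 3 of the 10 genes higher in KLRG1+ than in KLRG1- cells. Of 12 alternative fits, Anxa2 kept its call in 11, and Lgals1 and Anxa1 kept theirs in 7 each. These fits include the suffixed libraries alone, with 1 library per group, which cannot decide a call. Of the 6969 genes with a median of 20 CPM, 9.94% to 29.5% were at 0 in an Iso KLRG1+ library. In an Iso KLRG1- library at most 0.0861% were, and the part of this difference was not tested. Of all genes, 1.24% were called higher and 7.43% lower in this comparison, so that calls of all genes ran mostly the other way. The median was 0.46 for the 10 genes and -0.52 for the tested genes. In edgeR 4 of the 10 had an unadjusted p under 0.05, as had 26.6% of all genes. Median-ratio scaling raised the median of all genes by 0.15, and S100a11 (-0.11 ± 0.27, adjusted p = 0.875) then turned positive. Anxa2 averaged 1217 ± 461.7 CPM in KLRG1+ cells and 468.2 ± 28.4 CPM in KLRG1- cells (SD, n = 4 each), a log2 fold change of 1.38 ± 0.18 (edgeR, adjusted p = 2.5e-05). Its libraries did not overlap, and the call held in 8 of 8 fits that left out 1 library, where the log2 fold change was 1.12 to 1.52. Within the libraries without the name suffix it was 1.49 (adjusted p = 0.00116), and in those with it, 1 library per group, 0.98.

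Lgals1 (ENSMUSG00000068220) encodes galectin-1, which binds CD7, CD43 and CD45 on T cells. It stood at 1595, 1244, 1520 and 757 CPM in Iso KLRG1+ libraries and at 518, 1091, 732 and 334 CPM in Iso KLRG1- libraries. In 15 of 16 pairs the KLRG1+ library was above the KLRG1- one. The log2 fold change was 0.95 ± 0.23 (adjusted p = 0.0102), and the call held in 8 of 8 fits that left out 1 library, with adjusted p up to 0.0438. With the libraries without the name suffix alone, Lgals1 was at 0.90 (adjusted p = 0.0548), and in those with it, 1 library per group, at 1.09. With the number of genes holding a count as a covariate, chosen after the data were seen, Lgals1 was at 0.94 (0.339), Anxa1 at 2.25 (0.229) and Anxa2 at 1.81 (0.00279).

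Anxa1 (ENSMUSG00000024659) encodes annexin A1, a glucocorticoid-induced protein that acts on formyl peptide receptors once outside the cell. It stood at 32.2, 104.4, 110.6 and 327 CPM in Iso KLRG1+ libraries and at 20.1, 29.8, 19.3 and 55.3 CPM in Iso KLRG1- libraries. The log2 fold change was 2.13 ± 0.51 (adjusted p = 0.00778). The library at 327 CPM was replicate 4, which held 10315 CPM of myeloid markers. Without it Anxa1 was at 1.5 (adjusted p = 0.0566), and without replicates 3 and 4 together at 1.26 (0.132). The libraries without the name suffix gave 1.79 (adjusted p = 0.0729), and those with it, which are the 2 replicates 4, gave 2.48. The value in replicate 3, 110.6 CPM, rested on that library's total of 93198 counts.

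The remaining 7 genes had values between -0.11 and 0.63 between Iso KLRG1+ and KLRG1- cells, and none passed. S100a4 averaged 306.1 ± 115.2 CPM with KLRG1 and 220.8 ± 129.5 CPM without it (0.63 ± 0.30, adjusted p = 0.181). Vim averaged 866.2 ± 149.0 CPM with KLRG1 and 863.0 ± 280.6 CPM without it. DESeq2 called Anxa6, an annexin of the cell cortex, higher in KLRG1+ cells (0.53, adjusted p = 0.0367), where edgeR gave 0.36 ± 0.19 (adjusted p = 0.229).

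Under Tri, edgeR called none of the 10 genes between KLRG1+ and KLRG1- cells, with or without PD-1. In PD1- cells no gene of the table was called in either direction (0%), and DESeq2 called none of the 10. An unadjusted edgeR p under 0.05 was found for 675 genes (4.8%) and for 3 of the 10. All 10 were above 0 there, between 0.11 for S100a6 and 0.71 for Anxa1, with a median of 0.44 against -0.01 for all genes. Lgals1 averaged 1409 ± 544.9 CPM in Tri PD1-KLRG1+ and 856.1 ± 222.6 CPM in Tri PD1-KLRG1- cells (0.60 ± 0.22, adjusted p = 0.993). Vim averaged 830.0 ± 209.5 CPM and 559.4 ± 151.5 CPM in the same groups (0.53 ± 0.21), and Anxa2 1082 ± 235.3 CPM and 777.4 ± 30.9 CPM (0.43 ± 0.17), with the same adjusted p. Tumour and stroma markers were at 43.3 ± 12.3 CPM with KLRG1 and 109.2 ± 29.5 CPM without it (exact permutation p = 0.0159, Benjamini-Hochberg p = 0.134), and their part was not tested. In PD1+ cells 0.0285% of all genes were called higher and 0.0285% lower, the median of the 10 was 0.02, and DESeq2 called none of them. None of the 10 had an unadjusted edgeR p under 0.05, against 6.61% of all genes. Anxa1 had the value farthest from 0, with 47.7 ± 10.1 CPM in Tri PD1+KLRG1+ and 76.9 ± 24.4 CPM in Tri PD1+KLRG1- cells (-0.78 ± 0.43, adjusted p = 0.907).

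Whether the KLRG1 difference depended on treatment was tested as an interaction in PD1- cells, the Tri difference minus the Iso difference. Anxa2 was called, at -0.95 ± 0.25 (edgeR, adjusted p = 0.0309): the KLRG1 difference was 0.43 under Tri and 1.38 under Iso. Of all genes, 3.41% were called with a positive interaction and 0.185% with a negative one. The median interaction was -0.12 for the 10 genes and 0.48 for all genes. In edgeR 2 of the 10 had an unadjusted p under 0.05, as had 18.3% of all genes. The Iso PD1-KLRG1+ libraries, with 9.94% to 29.5% of the 6969 genes at 0, enter this contrast, and their part was not tested. The call held in 12 of 17 fits that left out 1 library and ended at adjusted p = 0.0785 without Tri PD1-KLRG1+ replicate 4, the Tri KLRG1+ library with the least Anxa2. It also ended without Tri PD1-KLRG1- replicate 4 (0.052) and without Iso PD1-KLRG1+ replicate 1 (0.0647), the highest Anxa2 library of its group, where the value was -0.70. The other 2 fits in which it ended left out Iso PD1-KLRG1- replicate 2 (0.0672) or replicate 3 (0.0661). Within the libraries without the name suffix the interaction for Anxa2 was -0.89 (adjusted p = 0.181), and in those with it, where 3 of the 4 groups have 1 library, -1.05. Of 12 alternative fits 6 kept the call. These fits include the suffixed libraries alone, which cannot decide the call. Besides the libraries without the suffix, it ended without the series term (-0.91, adjusted p = 0.0578) and with only the groups compared (-1.01, 0.1). As a covariate, the ribosomal share (-1.05, 0.0765) or the number of genes holding a count (-1.37, 0.0563) ended it too. Anxa1 had -1.42 ± 0.68 (adjusted p = 0.265), and the 8 other genes lay between -0.36 and 0.47. The interaction of KLRG1 with PD-1 under Tri was called for none of the 10 and for no gene of the table (0%), and DESeq2 called none of the 10. An unadjusted edgeR p under 0.05 was found for 638 genes (4.54%) and for 1 of the 10. All 10 interactions with PD-1 were negative, from -0.09 for S100a6 to -1.5 for Anxa1 (adjusted p = 0.894), with a median of -0.30 against -0.05 for all genes.

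Among KLRG1- cells under Tri, PD1+ cells held more Anxa2 and S100a4 transcripts than PD1- cells did. Anxa2 averaged 1522 ± 234.7 CPM with PD-1 and 777.4 ± 30.9 CPM without it (SD, n = 5 each), a log2 fold change of 0.96 ± 0.16 (edgeR, adjusted p = 0.000803). The call held in 10 of 10 fits that left out 1 library. Of all genes, 0.619% were called higher and 0.939% lower, and 2 of the 10 genes were called, both higher. In edgeR 4 of the 10 had an unadjusted p under 0.05, as had 9.52% of all genes. S100a4 (ENSMUSG00000001020) encodes a calcium sensor that binds non-muscle myosin IIA and is associated with cell motility. It stood at 963, 705, 836, 541 and 527 CPM in Tri PD1+KLRG1- libraries and at 482, 236, 469, 200.1 and 217 CPM in Tri PD1-KLRG1- libraries, with no overlap. The log2 fold change was 1.19 ± 0.27 (adjusted p = 0.017). It ended as a call without Tri PD1-KLRG1- replicate 4 (1.16, adjusted p = 0.0559) or Tri PD1+KLRG1- replicate 1 (1.15, adjusted p = 0.0525). It held in 9 of 13 alternative fits and also ended without the series term (1.15, adjusted p = 0.124) and with the number of genes holding a count as a covariate (1.07, adjusted p = 0.0741). Within the libraries without the name suffix S100a4 was at 1.09 (adjusted p = 0.354) and in those with it at 1.38 (0.233), and Anxa2 was at 1.12 (0.0268) and 0.77 (0.389).

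S100a11 and Lgals3 had libraries that did not overlap between PD1+KLRG1- and PD1-KLRG1- cells but did not pass. How many of all genes had no overlap between these groups was not counted. S100a11 (ENSMUSG00000027907), a partner of annexin A1, stood at 981, 621, 947, 549 and 616 CPM with PD-1 and at 515, 305, 531, 309.8 and 429.9 CPM without it. Its log2 fold change was 0.81 ± 0.24 (adjusted p = 0.1). It passed in 7 of 13 alternative fits, among them DESeq2 (0.88, adjusted p = 0.00783) and edgeR without the 4 Iso PD1-KLRG1+ libraries (0.83, adjusted p = 0.0406). Lgals3 (ENSMUSG00000050335), which encodes galectin-3, a lectin that cross-links surface glycoproteins, stood at 399, 377, 279, 278 and 309 CPM with PD-1 and at 263, 226.5, 262, 161 and 218.5 CPM without it. Its value was 0.54 ± 0.29 (adjusted p = 0.655), and it passed in 1 of 13 alternative fits, the one with only the groups compared (0.55, adjusted p = 0.0361). S100a6 (-0.15 ± 0.20), S100a10 (-0.34 ± 0.19) and Anxa6 (-0.15 ± 0.17) had values on the other side of 0. Summed NK cell markers were at 227.6 ± 45.8 CPM with PD-1 and 106.9 ± 31.3 CPM without it (exact permutation p = 0.0159, Benjamini-Hochberg p = 0.134 over 42 tests), with Ncr1 and Klra8 at 0 in both groups, and their part was not tested.

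In KLRG1+ cells under Tri none of the 10 genes passed in edgeR between PD1+ and PD1- cells, with 0.491% of all genes called higher and 0.711% lower. Anxa2 averaged 1655 ± 116.0 CPM with PD-1 (n = 5) and 1082 ± 235.3 CPM without it (n = 4), with no overlap (0.66 ± 0.17, adjusted p = 0.0577). It passed in 9 of 13 alternative fits, among them DESeq2 (0.77, adjusted p = 8.63e-06) and median-ratio scaling (0.77, adjusted p = 0.00884). Leaving out 1 library of these groups at a time gave no call for it, and leaving the 4 Iso PD1-KLRG1+ libraries out of the fit gave 0.71 (adjusted p = 0.0014). S100a4 stood at 1074, 953, 928, 509 and 740.1 CPM with PD-1 and at 365, 811, 527 and 275 CPM without it, and these ranges overlapped (0.91 ± 0.29, adjusted p = 0.15; DESeq2 1.02, adjusted p = 0.0101). S100a10 had 671.1 ± 110.2 CPM with PD-1 and 1094 ± 403.5 CPM without it (-0.56 ± 0.20, adjusted p = 0.229). Anxa1 stood at 43.4, 52.2, 32.2, 52.8 and 57.9 CPM with PD-1 and at 84.3, 102.8, 60.4 and 86.5 CPM without it, with no overlap (-0.92 ± 0.46, adjusted p = 0.46). Anxa6 had 978.5 ± 237.7 CPM with PD-1 and 1318 ± 228.0 CPM without it (-0.45 ± 0.18, adjusted p = 0.278). In total, 5 of the 10 had an unadjusted p under 0.05, against 11.2% of all genes. Myeloid markers were at 490.6 ± 207.9 CPM with PD-1 and 229.2 ± 28.7 CPM without it (exact permutation p = 0.0476, Benjamini-Hochberg p = 0.222), and their part was not tested.

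The comparisons share groups: Tri PD1-KLRG1- libraries serve 3 of the 7, and their low and narrow Anxa2 level enters each of those. Libraries of the same group also differed among themselves. The 4 S100 genes and Lgals1 varied together within groups. Over the 26 libraries other than the shallow one, Pearson's r of log2 CPM between these 5 genes was 0.83 to 0.91 after the group means were removed (10 pairs, median 0.88), and 0.64 to 0.90 when the name series was removed too. The median over all 45 pairs of the 10 genes was 0.22 and 0.12. These 5 genes were singled out after their values were seen, and the libraries differ in depth and in the share of ribosomal protein transcripts, so the correlations are descriptions.

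**Figure D3:**
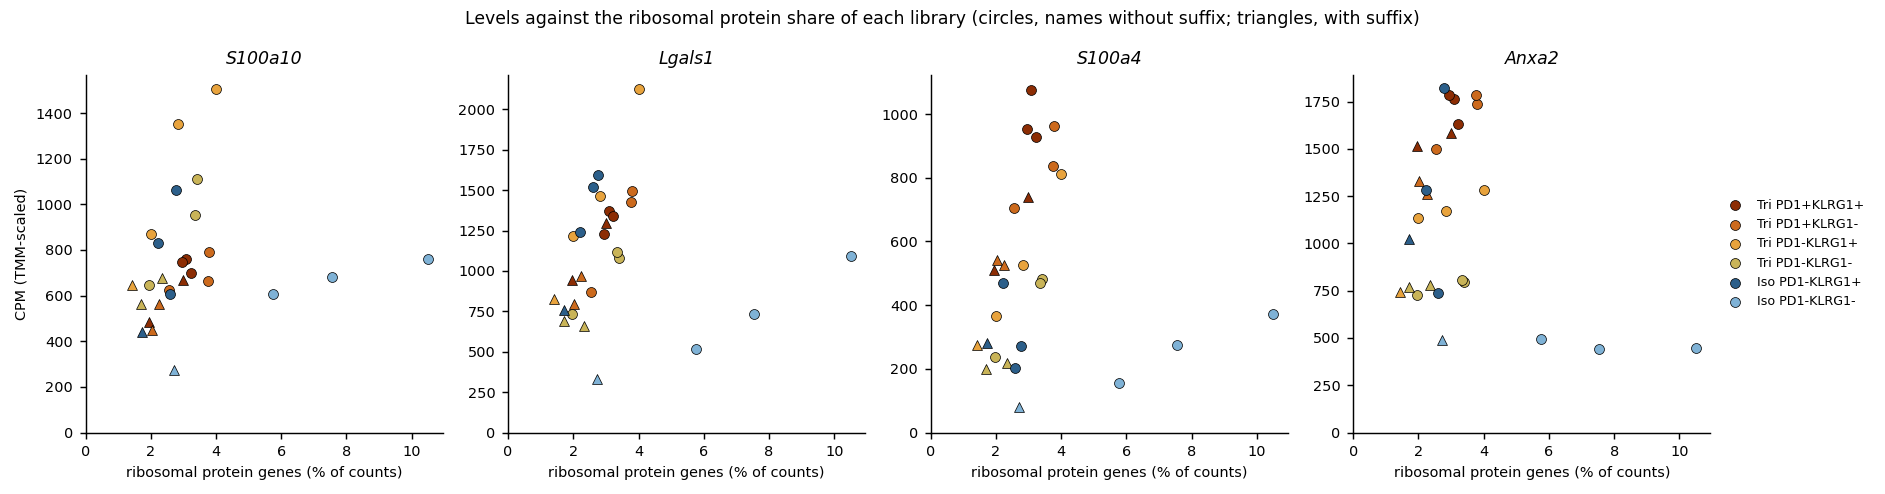
CPM of S100a10, Lgals1, S100a4 and Anxa2 (vertical axes) in each library against the share of its counts in ribosomal protein genes (horizontal axes, percent), coloured by group. Within a group S100a10, Lgals1 and S100a4 tend to lie higher where the share is higher, and the 4 Iso PD1-KLRG1- libraries run from 2.72% to 10.5%.

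The descriptions of some libraries carry an RNA-number suffix (Iso replicate 4 and Tri replicates 4 and 5), and this name series was a term in the fit. S100a4 (-0.81 ± 0.18, adjusted p = 0.0297), S100a6 (-0.72 ± 0.14, 0.015), S100a10 (-0.67 ± 0.13, 0.0155) and Lgals1 (-0.65 ± 0.14, 0.0282) were called lower in the suffixed libraries. For this term 0.128% of all genes were called higher and 0.854% lower. S100a11 was at -0.50 ± 0.16 (adjusted p = 0.171), and Anxa2 at -0.22 ± 0.11 (0.494). Short genes were lower in the suffixed libraries in general. Among genes averaging 10 CPM or more, 275 had up to 1000 exon bases, of which 86.2% were lower, with a median of -0.53. Between 1000 and 2000 exon bases, where S100a10 and S100a6 lie, there were 891 genes. Of these 79.1% were lower, with a median of -0.30. Another 5041 had over 4000 exon bases, of which 34.4% were lower, with a median of 0.18. The 4 called genes have 584 (S100a4), 903 (Lgals1), 1212 (S100a10) and 1367 (S100a6) exon bases, and the part of gene length was not tested. The 81 ribosomal protein genes tested had a median of -0.75, and 80 of them were below 0. The ribosomal share of counts had a median of 6.65% in Iso PD1-KLRG1- libraries and between 2.34% and 2.99% in the 5 other groups. With that share as a covariate, chosen after the data were seen, S100a4 (1.89), S100a6 (1.68), S100a10 (1.41), S100a11 (1.39) and Lgals1 (1.54) were called higher in Tri than in Iso PD1-KLRG1- cells, at adjusted p between 3.44e-05 and 0.00206, and Anxa2 was not (0.85, adjusted p = 0.218). The same covariate gave called values for KLRG1+ over KLRG1- Iso cells of 2.07 for S100a4, 1.46 for S100a6, 1.36 for S100a10, 1.27 for S100a11 and 2.18 for Lgals1. In these comparisons the share differs between the groups, so the covariate and the groups overlap, and which value describes the cells cannot be told apart.

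The genes whose level was most like that of Anxa2 over the 26 libraries were Prf1, which encodes the pore-forming protein perforin (Pearson's r = 0.89), Tmem163 (0.87) and Cd3e, a chain of the T cell receptor complex (0.80), out of 8798 genes whose mean reached 10 CPM. For Lgals1 they were Nkg7 (0.83), a protein of cytotoxic granules, Myl12a (0.80) and Serpinb6b (0.77). S100a4 was most like Pglyrp1 (0.87), Cox17 and AA467197 (0.86 each), S100a11 like Cox17 (0.92), Gapdh (0.89) and Pglyrp1 (0.88), and S100a10 like Myl6 (0.90), Pla2g16 (0.89) and Ndufb7 (0.86). S100a6 was most like S100a13 (0.85), Vim like Chchd7 (0.77), Lgals3 like Rnh1 (0.75), Anxa6 like Ddx54 (0.82) and Anxa1 like Iqgap1 (0.74). With group means removed, the genes nearest to Lgals1 were Rpl27-ps3, Rpl18 and Rps16 (0.97 each), and those nearest to S100a10 were Rps27 (0.96), Rps25 and Rpl24 (0.94 each). For Anxa2 they were then Arpc2 (0.83), Arhgdib (0.82) and Slc25a5 (0.80), which are not ribosomal genes.

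The S100 genes lie on chromosome 3 in the order S100a1, S100a13, S100a14, S100a16, S100a3, S100a2, S100a4, S100a5, S100a6, S100a7a, S100a8 and S100a9, and, after 56 other protein-coding genes, S100a11 and S100a10. High levels did not run along this order. S100a5, the only protein-coding gene between S100a4 and S100a6, had a mean of at most 0.567 CPM in any group, while S100a4 had 220.8 to 841.0 and S100a6 488.8 to 871.1 CPM. S100a8 and S100a9, which are abundant in neutrophils, had means of 12.3 and 16.7 CPM in Iso PD1-KLRG1- libraries and at most 0.587 and 0.0920 CPM in any Tri group. In Iso PD1-KLRG1+ libraries S100a8 was at 0 and S100a9 averaged 12.6 CPM. Near-identical copies were assigned few counts: the S100a11 pseudogenes Gm7665 and Gm12854 held 30 and 55 over all libraries, against 206040 for S100a11. They match 297 of 511 S100a11 transcript bases at 98.7% and 99.0% identity. The counting tool is not known, so reads lost from S100a11 through such matches cannot be measured from these counts. The antisense gene Gm16144 held 119 counts against 429965 for Anxa2, and Gm42674, which overlaps S100a4, 9 against 192978. Gm42674 matches 302 of 498 S100a4 transcript bases at 100% identity, and the same limit holds for S100a4.

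**Figure D4:**
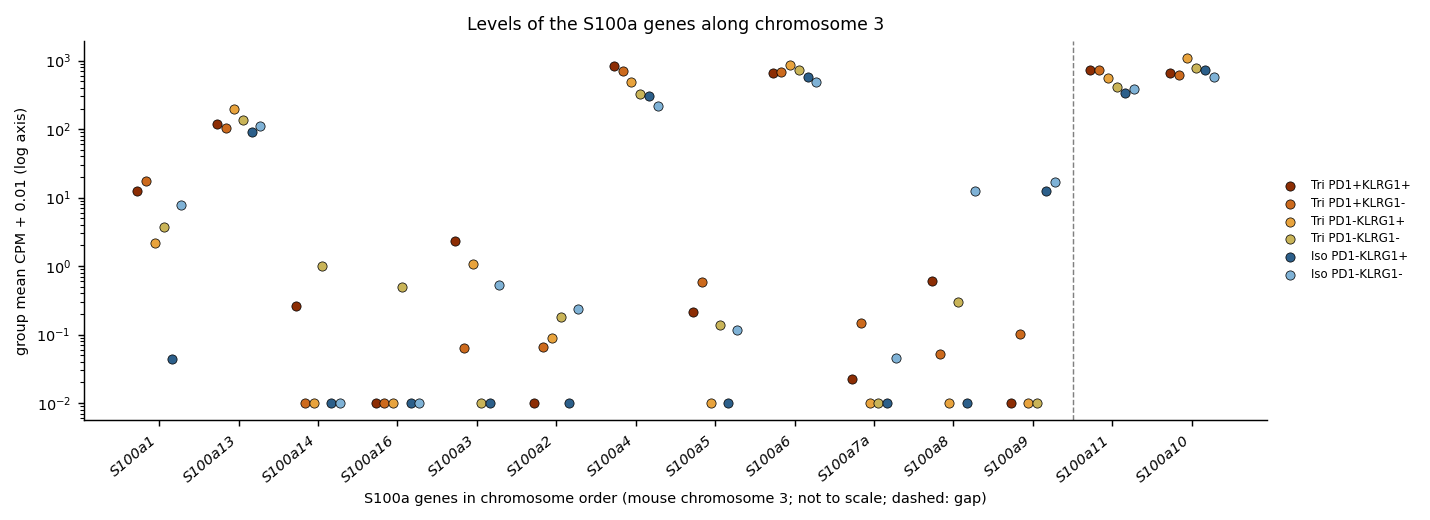
Group means in CPM (vertical axis, logarithmic, with a small constant added so that 0 can be drawn) of 14 S100a genes in their order on chromosome 3 (horizontal axis, not to scale), coloured by group. S100a4, S100a6, S100a10 and S100a11 lie at or above 220.8 CPM in all 6 groups, S100a13 between 91.0 and 199.7 CPM, and the other 9 at or below 17.5 CPM.

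Promoters are shown for S100a4 and Anxa2, which were called higher in PD1+KLRG1- cells, and for S100a6 and S100a11, which varied with S100a4 within groups. The windows run from 250 bases before to 50 bases after the start in RefSeq GRCm38.p6, 5′ to 3′ on the strand of the gene, which is the plus strand in all 4. Their places are chr3:90603520-90603819 for S100a4, chr3:90612644-90612943 for S100a6, chr3:93520246-93520545 for S100a11 and chr9:69453433-69453732 for Anxa2. Capitals mark matches to 5 motifs searched on both strands: AP-1 (TGANTCA), T-box (GGTGTG), RUNX (TGTGGT), ETS (CCGGAA) and KLF/SP (GGGCGG).
S100a4: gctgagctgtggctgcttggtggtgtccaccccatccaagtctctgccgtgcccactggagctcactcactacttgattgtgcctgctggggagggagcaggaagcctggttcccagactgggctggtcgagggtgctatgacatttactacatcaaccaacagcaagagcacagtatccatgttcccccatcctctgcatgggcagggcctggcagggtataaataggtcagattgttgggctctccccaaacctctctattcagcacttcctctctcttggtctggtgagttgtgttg
S100a6: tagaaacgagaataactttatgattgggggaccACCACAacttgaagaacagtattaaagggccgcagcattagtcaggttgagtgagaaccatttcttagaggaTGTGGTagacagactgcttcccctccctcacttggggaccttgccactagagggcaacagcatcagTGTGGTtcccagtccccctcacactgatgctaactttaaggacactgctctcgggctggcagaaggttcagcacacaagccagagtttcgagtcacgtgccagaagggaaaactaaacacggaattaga
S100a11: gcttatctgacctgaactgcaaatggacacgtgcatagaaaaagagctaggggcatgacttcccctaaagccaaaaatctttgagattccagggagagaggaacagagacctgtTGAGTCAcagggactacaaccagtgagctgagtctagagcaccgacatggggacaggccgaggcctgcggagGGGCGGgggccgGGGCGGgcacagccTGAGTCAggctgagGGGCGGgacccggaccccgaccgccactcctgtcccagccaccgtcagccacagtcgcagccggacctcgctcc
Anxa2: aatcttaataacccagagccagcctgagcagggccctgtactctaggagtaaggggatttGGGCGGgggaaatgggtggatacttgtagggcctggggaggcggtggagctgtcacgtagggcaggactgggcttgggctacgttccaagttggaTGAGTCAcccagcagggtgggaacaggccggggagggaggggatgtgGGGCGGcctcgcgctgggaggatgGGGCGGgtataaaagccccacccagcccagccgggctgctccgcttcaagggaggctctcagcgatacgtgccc
S100a11 held 2 AP-1 and 3 KLF/SP matches, Anxa2 1 AP-1 and 3 KLF/SP matches, S100a6 3 RUNX matches and S100a4 none of the 5 motifs. The AP-1 match of Anxa2 began at 95 bases before the start. Of 32851 RefSeq promoter windows of this length, 7.81% held the AP-1 motif, 16.8% the RUNX motif and 35.7% the KLF/SP motif, against 19.0% for T-box and 14.9% for ETS. GC content was 55.3% in the S100a4 window, 49.3% in S100a6, 61.7% in S100a11 and 63.7% in Anxa2, with a median of 52.7% over all windows. A match describes letters only. Windows were found for 7 of the 10 genes.

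Relatives of the 10 genes were counted in lists of other S100 genes (5 tested of 13 listed), other annexins (6 of 9), other galectins (6 of 9), binding partners and receptors (13 of 15), and cytoskeleton and cell cortex genes (20 of 20). Between Tri and Iso PD1-KLRG1- cells none of these genes was called by edgeR. Between Tri and Iso PD1-KLRG1+ cells S100a13 had 199.7 ± 102.8 CPM under Tri and 91.0 ± 18.7 CPM under Iso (1.01 ± 0.31, adjusted p = 0.05, called higher), and Capg, an actin filament capping protein, was higher too (0.71 ± 0.20, adjusted p = 0.0318). Cd7, a surface receptor that galectin-1 binds, was lower under Tri (62.3 ± 22.6 against 198.0 ± 141.4 CPM, -1.68 ± 0.42, adjusted p = 0.0175). These were 1 of 5 other S100 genes and 1 of 20 cortex genes called higher, and 1 of 13 binding partners called lower. Of all genes, 5.46% were called higher and 0.619% lower in this comparison. In KLRG1+ against KLRG1- Iso cells Anxa4 rose (2.06 ± 0.59, adjusted p = 0.0269), 4 cortex genes rose, among them the actin cross-linker Flna (1.03 ± 0.24, adjusted p = 0.00617) and the actin regulator Coro1a (0.45 ± 0.12, adjusted p = 0.0145), and the actin-binding peptide gene Tmsb10 fell, with 939.4 ± 224.5 CPM in KLRG1+ and 2637 ± 1628 CPM in KLRG1- cells (adjusted p = 0.000775). The interaction with treatment was called for Tmsb10 as well (1.32 ± 0.35, adjusted p = 0.0312). S100a1 was called lower with KLRG1 under Iso, with means of 0.0345 and 7.75 CPM in Iso KLRG1+ and KLRG1- cells (-7.47 ± 1.9). Both levels are low. In Iso KLRG1+ libraries 9.94% to 29.5% of the 6969 genes with a median of 20 CPM were at 0 as well, and the part of this was not tested. For KLRG1 under Iso, 1.24% of all genes were called higher and 7.43% lower. For the interaction with treatment, 3.41% were called positive and 0.185% negative. No relative was called between KLRG1+ and KLRG1- cells under Tri.

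Between PD1+ and PD1- cells under Tri the relatives moved in both directions. Capg rose in KLRG1+ cells (848.8 ± 140.1 against 409.4 ± 120.8 CPM, 1.10 ± 0.19, adjusted p = 0.00172) and in KLRG1- cells (1047 ± 149.1 against 429.0 ± 67.9 CPM, 1.28 ± 0.18, adjusted p = 5.47e-05). Lag3, an inhibitory receptor that galectin-3 binds, rose in KLRG1+ cells (94.1 ± 30.3 against 8.38 ± 5.98 CPM, adjusted p = 0.00406) and in KLRG1- cells (93.0 ± 17.8 against 11.2 ± 4.51 CPM, adjusted p = 0.00366). Crip1, a small LIM-domain protein, fell by 0.96 ± 0.20 with KLRG1 (adjusted p = 0.00918) and by 1.09 ± 0.19 without it (adjusted p = 0.00108). Coro1a fell as well, by 0.57 ± 0.11 (adjusted p = 0.00556) and 0.47 ± 0.10 (adjusted p = 0.013). Flna fell in KLRG1+ cells (-0.95 ± 0.22, adjusted p = 0.0263). In KLRG1- cells Lgals9, which encodes galectin-9, fell to 269.8 ± 38.8 CPM with PD-1, against 582.9 ± 88.6 CPM without it (-1.11 ± 0.22, adjusted p = 0.00443), and Cd7 to 22.8 ± 12.6 against 87.7 ± 20.7 CPM (-2.20 ± 0.39, adjusted p = 0.00151). Counted over the cortex list, 1 of 20 rose and 3 fell with PD-1 in KLRG1+ cells, and 1 rose and 2 fell in KLRG1- cells, where 0.491% and 0.711% of all genes were called higher and lower with KLRG1, and 0.619% and 0.939% without it. The list medians were -0.29 and -0.21 against -0.01 and 0.06 for all genes. All 6 other annexins tested were above 0 in PD1+KLRG1- cells (median 0.98), and none of them passed. The highest values came with low levels and a wide SE: Anxa3 (2.71 against 0.184 CPM, 3.49 ± 2.6) and Anxa9 (2.54 against 1.12 CPM, 1.53 ± 2.09). Anxa4 was at 1.44 ± 0.52, Anxa5 at 0.52 ± 0.36, Anxa7 at 0.5 ± 0.42 and Anxa11 at 0.38 ± 0.4.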

How the data were processed

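The deposited table gave counts, 1 whole number per mouse gene and library, without any scaling by the authors. The submitters' processing notes name DESeq2 1.26.0 but not its role. Which aligner, counting tool and genome build were used is not given in the sources used here. Columns were tied to samples through the descriptions in the labels, and 0 were left over. Symbols came from GENCODE M21 (47224 of 47729 IDs named).

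The 10 genes, the lists of related genes and the tests were chosen with earlier results of these data known. Genes named from a list are up to 4 called members with the smallest p, and like genes are the 3 with the highest r. Genes were kept by filterByExpr at a minimum count of 10 (14059 kept), scaled with TMM and fitted in edgeR 4.0.16 (R 4.3.3) by robust quasi-likelihood, with 6 group means and the name series. P-values were adjusted by Benjamini-Hochberg. SEs came from the fold change and the F statistic. Likeness used log2 CPM with a prior count of 2. The procedure was run on simulated data for Tri against Iso in PD1-KLRG1- cells only. That simulation held no name-series effect, no added zeros and no shift in ribosomal share, so it could not show how these affect the calls.

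Alternatives changed the scaling (RLE, a median-ratio method), the filter (none, or a minimum count of 50), the series term (left out, or 1 series at a time), the samples fitted (only those compared, or without single libraries) and the tool (DESeq2 1.42.0; limma-voom, limma 3.58.1, with a random block), and added a replicate block. Covariates of ribosomal share and genes detected, and removal of the Iso PD1-KLRG1+ group, were added after the data were seen. The protein sequences of the genes were not used here. Figures were drawn with matplotlib 3.10.9.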

Additional observations from a re-analysis of the deposited data

Results flagged for a closer look

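Anxa6 in Tri PD1-KLRG1- replicate 5 stood apart from its group, with 1373.5 CPM against 1044 to 1108 CPM in the 4 other libraries. It was the only sample so flagged in 60 groups of values (10 genes in 6 groups), where chance flags about 3, or 1 in 20.

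Anxa2 was flagged because its KLRG1 difference in PD1- cells differed between the treatments, with an interaction of -0.95 ± 0.25 on the log2 scale (edgeR, adjusted p = 0.0309), from 0.43 under Tri and 1.38 under Iso. The Iso PD1-KLRG1+ libraries behind it ran from 737 to 1824 CPM for Anxa2, and the Iso PD1-KLRG1- libraries from 442 to 497 CPM.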

How the results depend on the processing

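With another setting, the number of the 10 genes called stayed within 1.5 times in 79 of 114 counts over 14 settings. Counts of 0 that stayed at 0 are among the 79, so they do not measure how stable the calls were. The 114 include counts from the suffixed libraries alone. These are not listed below where a compared group had 1 library there. The counts that moved were as follows, against 1 for Tri over Iso in PD1-KLRG1- cells, 0 in PD1-KLRG1+ cells, 3 for KLRG1 under Iso, 0 and 0 for KLRG1 under Tri, 0 and 2 for PD-1 in KLRG1+ and KLRG1- cells, and 1 for the interaction with treatment. Tri over Iso in PD1-KLRG1- cells gave 2 with no count filter, with DESeq2 and with a random block in limma-voom. It gave 5 with the ribosomal covariate, and 0 without the series term or in the libraries without the suffix. Tri over Iso in PD1-KLRG1+ cells gave 1 with DESeq2 and 2 with the ribosomal covariate. KLRG1 under Iso gave 1 in the libraries without the suffix, with only the groups compared and with the genes-detected covariate, and 6 with the ribosomal covariate. KLRG1 in Tri PD1- cells gave 1 with the ribosomal covariate. PD-1 in KLRG1+ cells gave 1 with RLE scaling, a minimum count of 50, only the groups compared, Iso PD1-KLRG1+ replicates 3 and 4 removed, either covariate and the replicate block, and 2 with no filter, DESeq2 or Iso PD1-KLRG1+ removed. PD-1 in KLRG1- cells gave 1 without the series term, in the unsuffixed libraries and with the genes-detected covariate, 0 in the suffixed libraries, and 4 with only the groups compared. The interaction gave 0 without the series term, in the unsuffixed libraries, with only the groups compared and with the genes-detected covariate. With the ribosomal covariate it gave 2, which were S100a6 and Lgals1 and not Anxa2. The cause was not tested.

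Leaving out 1 library gave 0 to 1 for Tri over Iso in PD1-KLRG1- cells, 0 to 1 in PD1-KLRG1+ cells, 2 to 4 for KLRG1 under Iso, 1 to 2 for PD-1 in KLRG1- cells, 0 to 1 for the interaction with treatment, and 0 throughout for the rest. No value called in the edgeR fit to all libraries changed sign in any setting. In settings other than leaving out a library, 66 of 1140 single values changed sign, 1 of them with a call: S100a11 for KLRG1 under Iso became 1.27 with the ribosomal covariate. Leaving out a library changed the sign of 55 of 990, none with a call. RLE scaling moved the median of all genes by -0.18 for the interaction with treatment and by 0.1 for PD-1 in KLRG1+ cells, where Lgals1 changed sign, as Lgals3 did for Tri over Iso in PD1-KLRG1- cells.

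The replicate numbers were not used as pairs, since the labels do not say what they share and in no comparison did every same-numbered pair correlate above 0.1. Libraries of 1 number may still come from 1 mouse, which the labels do not say. The replicate block gave Anxa2 0.66 for PD-1 in KLRG1+ cells (adjusted p = 0.0491). The random block had a consensus correlation of 0.015 and gave S100a6 0.84 for Tri over Iso in PD1-KLRG1- cells (adjusted p = 0.0372). Depth limits the values of Iso PD1-KLRG1+ replicate 3, with 93198 counts in all.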
